A study of Arabidopsis thaliana with 10 samples.

Results

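The response of wild-type Arabidopsis thaliana roots to low sulfate was examined in 4 of the 10 arrays of the series, the 2 of the wild type Col (Columbia) at 15 µM sulfate (-S) and the 2 of Col at 1500 µM sulfate (+S), chosen by their titles. Each array was an ATH1 array, on which a probe set is a group of short oligonucleotides that measures a transcript. The other 6 arrays came from 2 lines of the sdi1sdi2 double knockout (KO), grown at -S and at +S, and from 2 lines that overexpress SDI1 (OX), grown at +S only. They entered the fit as 3 further groups of 2, and the KO arrays also served to test whether the response depended on genotype. All plants grew for 10 days at 22 °C with 16 h of light and 8 h of dark on agar medium with 1% sucrose. Seeds were placed on the final medium from the start, so the plants met low sulfate throughout growth and were not transferred to it. Both media held the same amount of magnesium, as the chloride salt where sulfate was left out. Each KO and OX group holds a different line on each array. Nothing in the labels tells whether duplicate Col arrays were separate cultures, so the p-values measure a spread that may be partly technical.

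Plants take up sulfur as sulfate, which ATP sulfurylase activates and sulfite reductase brings to sulfide for the synthesis of cysteine, glutathione and methionine. Roots of Arabidopsis and its relatives also place sulfur in glucosinolates, defence compounds made from amino acids, of which the aliphatic ones derive from methionine. When sulfate runs short, sulfate uptake and the release of sulfur from glucosinolates are known to be raised and glucosinolate synthesis to be lowered, and SDI1 and SDI2 are known as repressors of glucosinolate synthesis whose transcripts accumulate under such conditions.

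All levels are the deposited values brought to a log2 scale whose zero point is unknown, so that a level below 0 has no meaning of its own. Differences are the mean at -S minus the mean at +S on that scale, given ± SE of the fit with n = 2 arrays in each group. Adjusted p-values come from limma over 22197 probe sets with the Benjamini-Hochberg method and a threshold of 0.05, and "rose" or "fell" is used of probe sets that passed it. The number of arrays limits the precision. A background level was set on each array from 22 probe sets for Bacillus transcripts, and a fold against a group that did not exceed it on any array is a lower bound on the scale of the deposited values. On that scale the spiked controls rose with slopes of 1.06 to 1.14 against their nominal concentrations, so folds and their bounds may be overstated. The background level was 0.37 on Col -S 2, against -0.28 on Col -S 1, -0.36 on Col +S 1 and -0.47 on Col +S 2, so 51.4% of probe sets lay above it on Col -S 2 and 62.0% to 65.4% on the other Col arrays. The 2 Col +S arrays correlated at 0.9949 and the 2 Col -S arrays at 0.9904, against 0.9739 to 0.9816 between the conditions. Since whole roots were sampled, fewer cells of a type and less RNA per cell cannot be told apart.

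Low sulfate changed 2095 of the 22197 probe sets in Col, which is 9.44%. Of these, 985 rose (4.44%) and 1110 fell (5.0%). Counts of called genes in the lists below are to be read beside these shares. All lists were chosen with earlier results of these data known, so a list share above these is not independent evidence about its genes. Most changes were small: the median size among called probe sets was 0.66 on the log2 scale. At least 2-fold changes were found for 186 rises and 262 falls, at least 4-fold changes for 45 rises and 49 falls, and at least 8-fold changes for 23 rises and 13 falls, so the falls outnumbered the rises at 2-fold but not at 8-fold. The arrays of the 2 conditions did not overlap for any of the 2095, and did not overlap for 11135 of all 22197 probe sets. A lack of overlap in a called gene, where given below, is therefore no evidence beyond its call. The share called was 2.74% of the 7225 probe sets under background on all 4 Col arrays. It was 12.8% of the 14132 above background on both arrays of at least 1 condition, and 11.2% of the 840 in neither class. The classes were made from the same 4 arrays as the differences, so a change across background takes a probe set out of the lowest class. The shares are therefore no test of an effect of level. In 35 rises both +S arrays were under background and both -S arrays above it, and in 145 falls the reverse held. A further 106 rises and 92 falls were under background on all 4 Col arrays. These counts depend on the background level, which was highest on Col -S 2. Without Col +S 1 the count of called probe sets was 897, without Col +S 2 it was 990 and without Col -S 2 it was 1143, against 1914 without Col -S 1.

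**Figure D1:**
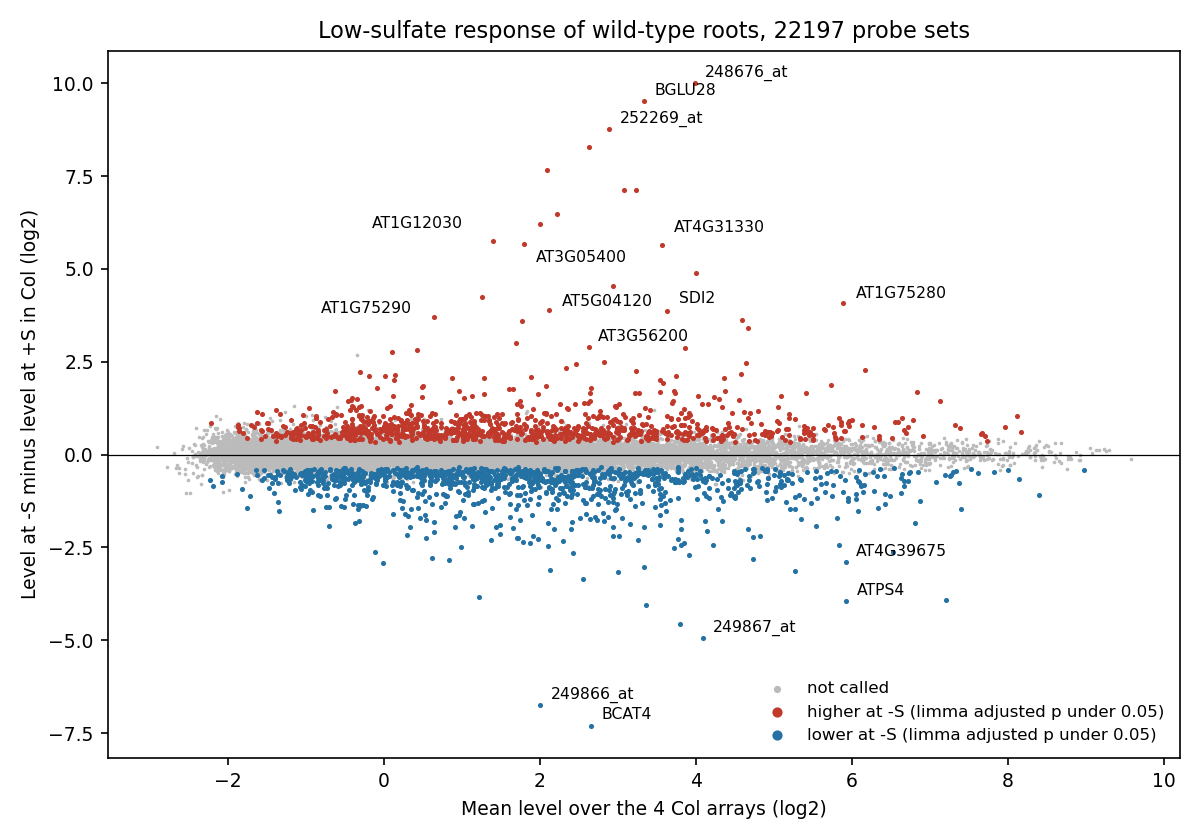
Each point is 1 of 22197 probe sets, placed by its mean level over the 4 Col arrays (log2, horizontal) and by its level at -S minus that at +S in Col (log2, vertical), with red points higher and blue points lower at an adjusted p under 0.05. The points farthest from 0 are at 10.01 (248676_at) and -7.30 (BCAT4), and the 985 red and 1110 blue points mostly lie close to the grey band.

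Of the genes known as markers of sulfur deficiency, 4 of 12 had a probe set with a listed gene, and 2 of these rose. The beta-glucosidase BGLU28, which is known to break down glucosinolates when sulfur is short, read -1.34 and -1.52 at +S and 8.12 and 8.07 at -S. Both -S arrays therefore stood far above both +S arrays, which lay under background, and the rise was at least 364-fold (limma adjusted p = 4.7e-09). Division by the slope of the spiked controls lowered the fitted difference from 9.53 to 8.55, so the bound holds only on the deposited scale. SDI2, a repressor of glucosinolate synthesis, read 1.83 and 1.57 at +S and 5.65 and 5.47 at -S, a rise of 3.86 ± 0.50 (limma adjusted p = 0.0018). Its SE was larger than that of most genes, for which the median SE was 0.13. The pooled spread of this gene includes its KO arrays, which read -0.35 and -1.16 at +S and 0.31 and -1.52 at -S. The related genes MS5L2 and MS5L1 did not pass the test. MS5L2 read 0.35 and 0.56 at +S and 0.65 and 0.68 at -S, a difference of 0.21 ± 0.10, and MS5L1 was under background on all 4 arrays. The median difference of the 4 genes was 2.04, against 0.018 over all probe sets tested. No gene of the list of sulfate transporters had a probe set with a listed gene.

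Sulfate assimilation showed opposite changes within 1 enzyme family. Of 22 genes 3 were measured, and all 3 were called. The ATP sulfurylase ATPS4 read 7.91 and 7.90 at +S and 3.88 and 4.04 at -S, a fall of 3.94 ± 0.11 (limma adjusted p = 8.3e-08). The ATP sulfurylase ATPS3 read 0.82 and 0.86 at +S and 2.89 and 2.98 at -S, a rise of 2.10 ± 0.14 (limma adjusted p = 4.7e-05). In both genes the arrays of a condition lay within 0.2 of each other, far apart from the other condition. Sulfite reductase (SIR) read 5.78 and 5.54 at +S and 5.20 and 5.19 at -S and fell by 0.47 ± 0.10 (limma adjusted p = 0.024), with both -S arrays below both +S arrays. Its call was lost without Col -S 1, Col -S 2, Col +S 1 or either KO +S array, with an adjusted p of up to 0.18.

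In glutathione and methionine metabolism 5 of 21 genes were measured, 1 rose and 1 fell. Cystathionine beta-lyase (CBL), an enzyme of methionine synthesis, read 4.45 and 4.46 at +S and 3.80 and 3.95 at -S and fell by 0.58 ± 0.10 (limma adjusted p = 0.0072). The glutathione reductase GR1 read 3.96 and 3.93 at +S and 4.36 and 4.29 at -S and rose by 0.38 ± 0.09 (limma adjusted p = 0.030). Neither gene's conditions overlapped, but both changes were under 0.6 on the log2 scale. The call of CBL was lost without Col +S 1 or Col +S 2 (adjusted p up to 0.052), and that of GR1 without any of the 4 Col arrays or either KO +S array (adjusted p up to 0.14). The other glutathione reductase, GR2, differed by -0.40 ± 0.14, methionine gamma-lyase (MGL), which degrades methionine, by 0.41 ± 0.22, and the homocysteine methyltransferase HMT1 by 0.04 ± 0.10, and none of them passed the test. The median difference of the 5 genes was 0.042.

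Genes of aliphatic glucosinolate synthesis fell: 5 of 26 were measured and 4 of these were lower at -S, with a median difference of -2.20 over the 5. BCAT4, the aminotransferase that takes methionine into the pathway, read 6.40 and 6.22 at +S and -0.63 and -1.35 at -S. The -S arrays were under background, so the fall was at least 76.9-fold (limma adjusted p = 1.2e-07). GSTU20, a glutathione transferase tied to the core pathway, read 3.05 and 2.97 at +S and 1.01 and 0.61 at -S and fell by 2.20 ± 0.15 (limma adjusted p = 4.7e-05). The glucosyltransferase UGT74C1 read 2.69 and 2.43 at +S and 0.59 and 0.23 at -S and fell by 2.15 ± 0.16 (limma adjusted p = 8e-05), with Col -S 2 at a level under its background. GSL-OH, which hydroxylates the side chain of finished glucosinolates, read 5.16 and 5.36 at +S and 2.63 and 2.50 at -S and fell by 2.69 ± 0.11 (limma adjusted p = 1.4e-06). In all 4 genes both -S arrays lay below both +S arrays, and the 4 calls were kept when any 1 of the 10 arrays was left out. AOP3, another gene of side-chain modification, was under background on all 4 arrays.

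Of the indolic and shared steps only UGT74B1, a glucosyltransferase that acts on the precursors of several glucosinolates, was measured, 1 of 15 genes. It read 3.49 and 3.59 at +S and 2.92 and 2.69 at -S and fell by 0.73 ± 0.13 (limma adjusted p = 0.0098), a call that was lost without Col -S 2 or Col +S 2 (adjusted p up to 0.071). Of 12 regulators the transcription factors MYC3 and MYC4 were measured. MYC3 read 2.91 and 2.88 at +S and 2.79 and 2.42 at -S and MYC4 1.92 and 1.94 at +S and 2.06 and 1.39 at -S, with differences of -0.29 ± 0.19 and -0.21 ± 0.24 (limma adjusted p = 0.41 and 0.66). In both genes Col -S 2 was the lowest array and Col -S 1 lay close to the +S arrays.

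Of glucosinolate breakdown and transport 4 of 18 genes were measured, of which 2 rose and 1 fell. The rises were BGLU28, given above, and the glucosinolate importer GTR1. GTR1 read 1.02 and 1.30 at +S and 3.67 and 3.34 at -S and rose by 2.34 ± 0.19 (limma adjusted p = 0.00013). Its paralogue GTR2 read 3.92 and 4.04 at +S and 3.23 and 2.89 at -S and fell by 0.91 ± 0.15 (limma adjusted p = 0.0053). The conditions did not overlap in either gene. PYK10, the abundant beta-glucosidase of root ER bodies, read 8.76 and 9.12 at +S and 8.97 and 8.87 at -S, with overlapping conditions and a difference of -0.02 ± 0.15.

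**Figure D2:**
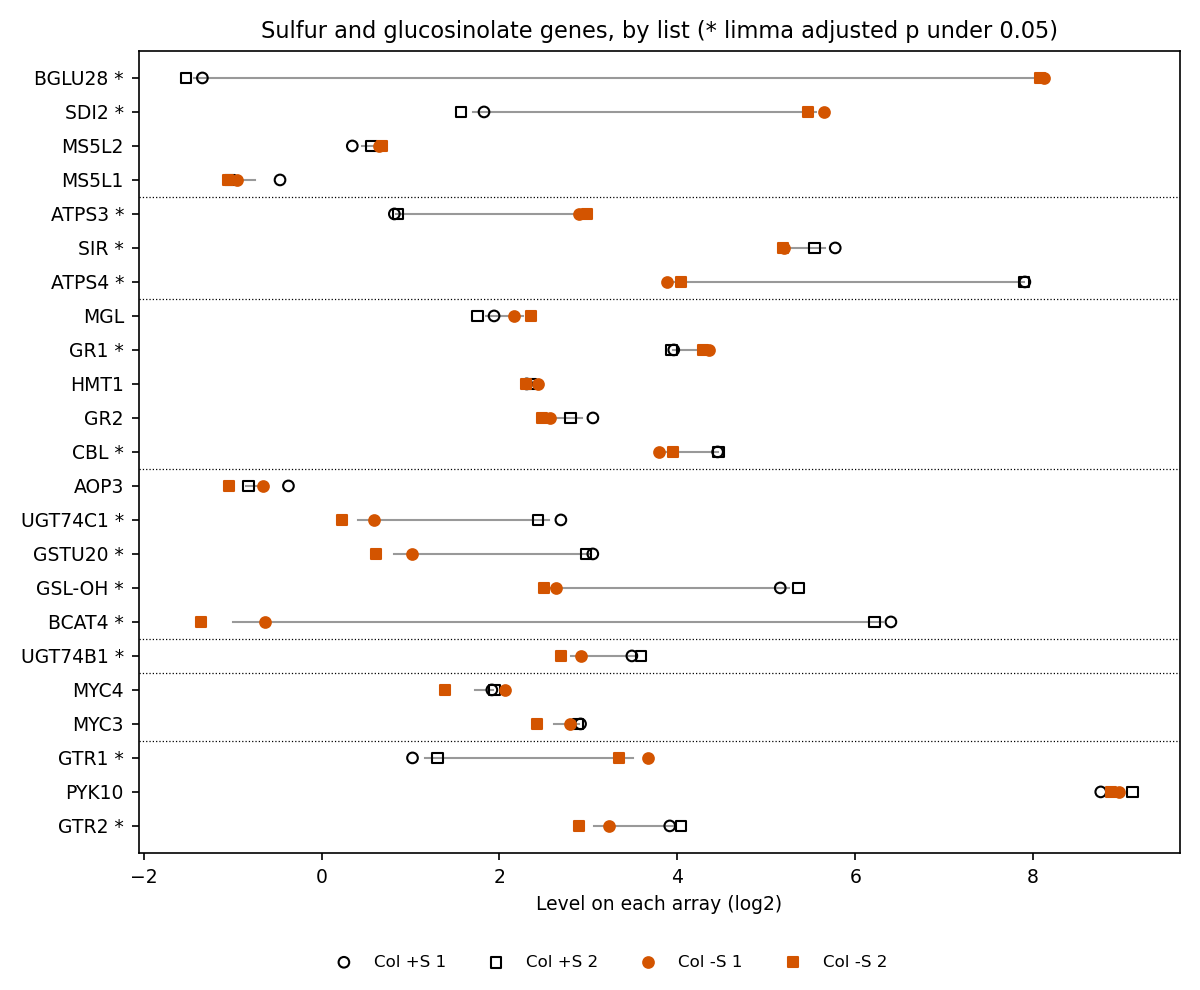
Levels (log2, horizontal) of the measured sulfur and glucosinolate genes on each of the 4 Col arrays, with open symbols for +S, filled symbols for -S, a grey line between the 2 means, dotted lines between the lists and an asterisk for an adjusted p under 0.05. BGLU28, SDI2, ATPS3 and GTR1 have their filled symbols far to the right of the open ones, and ATPS4, BCAT4, GSL-OH, GSTU20 and UGT74C1 far to the left.

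Among named genes the largest rises after BGLU28 were in genes outside the sulfur lists. AT1G12030 read -1.50 and -1.46 at +S and 4.09 and 4.47 at -S and rose at least 25.9-fold (limma adjusted p = 5e-08). AT3G05400, of the family of sugar transporters, read -1.0 and -1.09 at +S and 4.61 and 4.66 at -S and rose at least 33.1-fold (limma adjusted p = 6.1e-09). Both genes were under background on the +S arrays and clearly above it on both -S arrays. AT4G31330 read 0.97 and 0.50 at +S and 6.29 and 6.49 at -S, a rise of 5.65 ± 0.15, and AT5G04120 read -0.07 and 0.40 at +S and 3.64 and 4.49 at -S, a rise of 3.90 ± 0.43. AT5G04120 had the widest gap between its -S arrays among the 15 largest rises. The neighbouring genes AT1G75280 and AT1G75290, both isoflavone reductase-like, read 3.83 and 3.86 at +S and 7.94 and 7.93 at -S, and -1.23 and -1.18 at +S and 2.53 and 2.44 at -S. AT1G75280 rose by 4.09 ± 0.10, and AT1G75290 at least 7.47-fold from a +S level under background.

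The next rises included transporters and enzymes of secondary metabolism. AT3G56200, of an amino acid transporter family, read 1.28 and 1.08 at +S and 4.16 and 4.01 at -S and rose by 2.90 ± 0.14. AT5G40670, the Arabidopsis homologue of the human lysosomal cystine exporter cystinosin, read 3.46 and 3.53 at +S and 5.63 and 5.70 at -S and rose by 2.17 ± 0.10 (limma adjusted p = 4.4e-06). The 2 conditions were clearly apart in both genes, with arrays of a condition close to each other. The cation/H+ exchanger CHX16 rose by 2.50 ± 0.11, from 1.54 and 1.61 to 4.09 and 4.05. AT4G20820, a berberine bridge enzyme-like protein, rose by 2.44 ± 0.18, from 1.25 and 1.24 to 3.96 and 3.40. AT5G37990, of a family of methyltransferases that use S-adenosylmethionine, was bright at +S already and rose by 2.29 ± 0.10, from 5.05 and 5.01 to 7.26 and 7.37. Its neighbour AT5G37980, related to alkenal reductases, read -0.80 and -1.15 at +S and 1.77 and 1.89 at -S and rose at least 4.74-fold. The limma adjusted p-values of the 15 largest rises among named genes ran from 4.7e-09 to 0.0018, and each call was kept when any 1 array was left out.

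The large falls outside the glucosinolate and assimilation genes were less steep than that of BCAT4. AT4G39675 read 7.32 and 7.43 at +S and 4.49 and 4.45 at -S and fell by 2.90 ± 0.13, and AT2G28780 read 3.71 and 3.81 at +S and 1.19 and 1.01 at -S and fell by 2.66 ± 0.12. AT1G21440, related to phosphoenolpyruvate mutases and isocitrate lyases, read 5.02 and 5.04 at +S and 2.71 and 2.45 at -S and fell by 2.45 ± 0.11. AT4G07820, of the family of pathogenesis-related protein 1, read 5.47 and 5.41 at +S and 3.07 and 2.92 at -S and fell by 2.45 ± 0.19. In these 4 genes every -S array lay at least 2 log2 units below every +S array. AT5G56100 fell by 2.37 ± 0.16, from 2.97 and 2.95 to 0.54 and 0.64. AT1G33055 fell by 2.33 ± 0.28, from 3.58 and 3.35 to 1.12 and 1.15, and AT3G10020 by 2.30 ± 0.16, from 4.49 and 4.32 to 2.10 and 2.12; both are known as genes that low oxygen induces. The limma adjusted p-values of the 15 largest falls among named genes ran from 8.3e-08 to 0.0013, and each call was kept when any 1 array was left out.

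**Figure D3:**
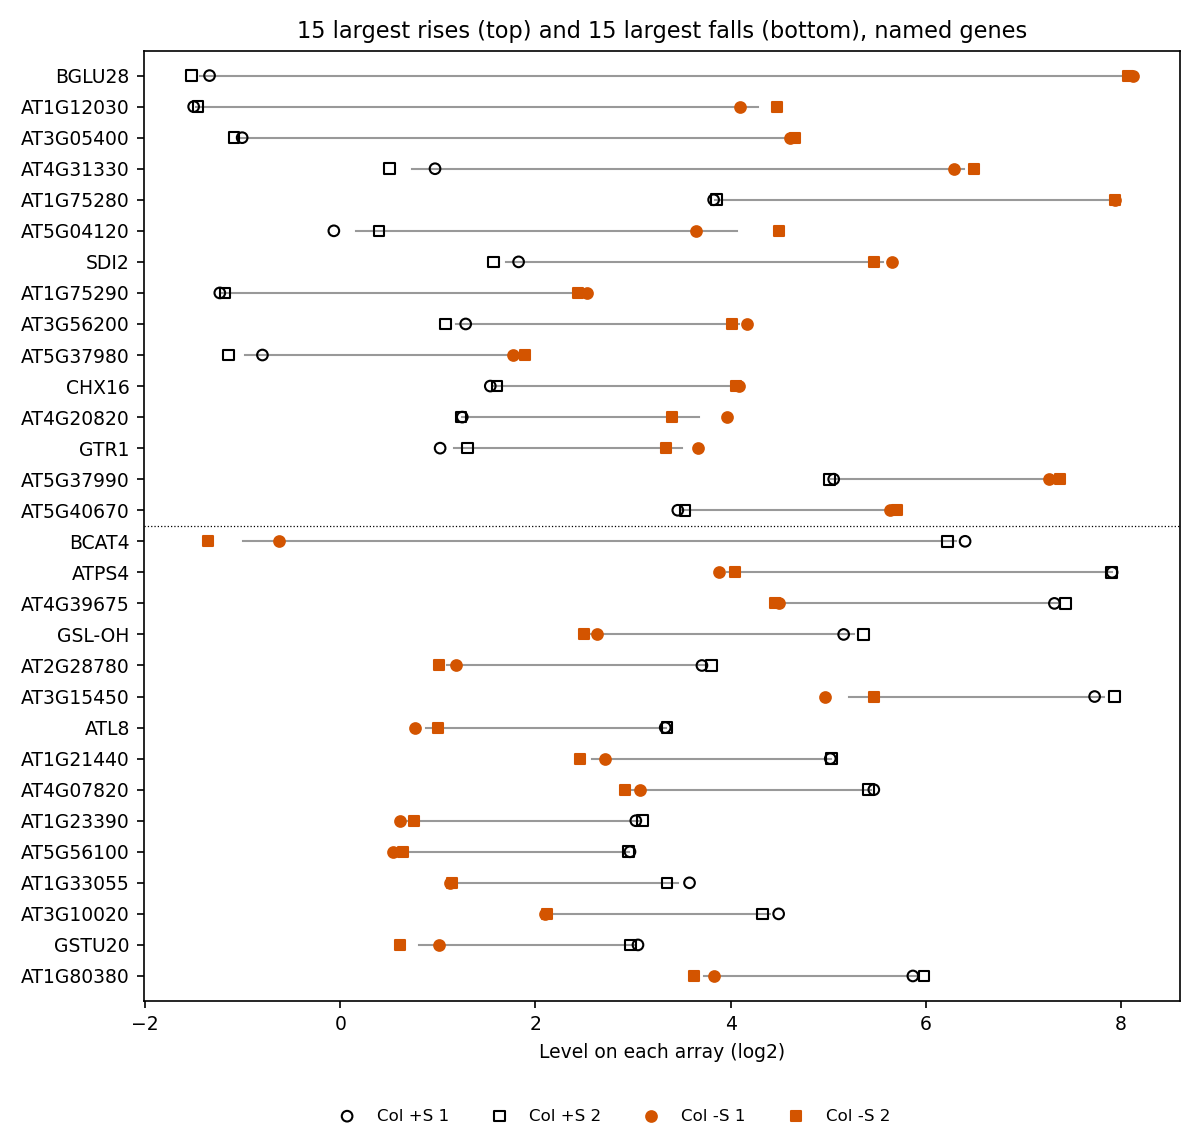
Levels (log2, horizontal) on each Col array of the 15 named genes with the largest rises (top) and the 15 with the largest falls (bottom), with open symbols for +S, filled symbols for -S and a grey line between the 2 means. Within a condition the symbols lie close together next to the distance between conditions, and the widest gap between -S arrays is in AT5G04120 (3.64 and 4.49).

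Large changes were also measured by probe sets for which the annotation used here lists no gene, and they are given by probe set ID. Among these probe sets the 2 largest rises were in 248676_at, at -0.96 and -1.08 at +S and 8.86 and 9.13 at -S, and in 252269_at, at -1.30 and -1.70 at +S and 7.18 and 7.37 at -S. Both were under background at +S, so they rose at least 679-fold and at least 207-fold (limma adjusted p = 1.8e-08 and 6.1e-09). Their 2 largest falls, both smaller than that of BCAT4, were in 249866_at, at 5.47 and 5.29 at +S and -1.12 and -1.61 at -S, and in 249867_at, at 6.58 and 6.54 at +S and 1.90 and 1.33 at -S. The first fell at least 40.2-fold to a level under background, and the second by 4.94 ± 0.18 (limma adjusted p = 3.6e-08 and 9.9e-07). Of the 2095 called probe sets, 508 rises and 536 falls belonged to a single listed gene.

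All measured genes of a list of energy status, whose transcripts are known to accumulate when sugar is short, fell. The list has 21 genes, of which 7 were measured and 7 fell (0 rose), with a median difference of -2.20. Of these, 4 were among the largest falls in earlier results of these data, so the count is not independent evidence of the list's direction. AT3G15450, a dark-induced gene, read 7.73 and 7.93 at +S and 4.97 and 5.46 at -S and fell by 2.61 ± 0.22. The RING-type ubiquitin ligase ATL8 read 3.33 and 3.35 at +S and 0.76 and 1.00 at -S and fell by 2.46 ± 0.24. Both -S arrays stood more than 2 log2 units below both +S arrays in each of these genes. The F-box gene AT1G23390 read 3.03 and 3.10 at +S and 0.62 and 0.76 at -S and fell by 2.38 ± 0.14, and AT1G80380, which encodes glycerate kinase of photorespiration, read 5.87 and 5.98 at +S and 3.83 and 3.62 at -S and fell by 2.20 ± 0.24. The enzymes of leucine breakdown also fell: the biotin subunit of methylcrotonyl-CoA carboxylase, MCCA, by 1.33 ± 0.12, from 2.62 and 2.66 to 1.26 and 1.34, and isovaleryl-CoA dehydrogenase, IVD, by 1.45 ± 0.18, from 2.90 and 2.85 to 1.63 and 1.21. AKINBETA1, a subunit of the SnRK1 kinase complex that senses energy supply, fell by 0.74 ± 0.13, from 4.02 and 4.20 to 3.24 and 3.49. The limma adjusted p-values ran from 2e-05 (AT1G23390) to 0.0072 (AKINBETA1). When 1 Col array was left out, 7 of 7 were still lower, except that 6 were without Col +S 2.

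Cell wall genes rose more often than they fell. Of 10 xyloglucan endotransglucosylase genes, which remodel the xyloglucan of walls, 4 rose and 0 fell, and of 19 expansin genes, which loosen walls, 4 rose and 0 fell. These are 40% and 21.1% of the members, against 4.44% of all probe sets. Since the lists were chosen with earlier results of these data known, the higher shares are not independent evidence. Median differences were 0.24 and 0.30. XTH18 read 2.56 and 2.89 at +S and 3.84 and 4.10 at -S and XTH19 2.53 and 3.10 at +S and 4.17 and 3.87 at -S, rises of 1.25 ± 0.17 and 1.21 ± 0.21 (limma adjusted p = 0.0021 and 0.0076). XTH18 and XTH19 are neighbouring genes of similar sequence, and whether their probe sets share signal was not tested. XTH33 read -0.44 and -0.04 at +S and 0.75 and 0.61 at -S and rose by 0.92 ± 0.15, while XTH26 passed the test at a level near background (-1.16 and -1.16 at +S and 0.00 and -0.14 at -S). Without Col +S 1 the call of XTH19 was lost (limma adjusted p = 0.053), and 3 of 10 were called.

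Of the expansins, EXLA2 read -0.35 and -0.43 at +S and 0.44 and 0.68 at -S and rose by 0.95 ± 0.15, and EXLB1 read 1.44 and 1.36 at +S and 2.07 and 2.09 at -S and rose by 0.68 ± 0.12. EXPA7 and EXPA18, known for their expression in root hairs, read 2.87 and 3.22 at +S and 3.89 and 3.72 at -S, and 3.34 and 3.33 at +S and 4.15 and 4.06 at -S. They rose by 0.76 ± 0.14 and 0.77 ± 0.15 (limma adjusted p = 0.011 and 0.015). All 4 genes had both -S arrays above both +S arrays, as all called rises did. The calls did not hold without every array: EXPA7 was lost without Col -S 1 or Col +S 1 (adjusted p up to 0.088), EXPA18 without any Col array (up to 0.093) and EXLB1 without Col +S 2 (0.064), so that 2 or 3 of the 19 expansins were called when 1 Col array was left out.

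Of 38 endoglucanase and wall acetylation genes 6 rose and 2 fell, 15.8% and 5.26% against 4.44% and 5.0% of all probe sets. Only 4 of the 6 rises were in genes above background on both arrays of at least 1 condition. The median difference was 0.20. The endoglucanase genes GH9B8 and GH9C1 rose by 1.06 ± 0.16 and 0.75 ± 0.13, from 2.34 and 2.14 to 3.46 and 3.15 and from 2.44 and 2.55 to 3.11 and 3.37. GH9B13 of the same family fell by 0.70 ± 0.12, from 4.42 and 4.47 to 3.65 and 3.84, so the family did not move one way. TBL38 rose by 0.45 ± 0.09 and TBL36 fell by 0.63 ± 0.11, both of a family of wall polysaccharide acetyltransferases. Without Col +S 1 only 1 of the 38 rose, without Col +S 2 or Col -S 2 there were 2 rises, and without Col -S 1 there were 7. The calls of GH9C1 and TBL38 were lost without Col +S 1 (adjusted p = 0.065 and 0.13), that of TBL38 also without Col -S 2 or Col +S 2, and those of GH9B13 and TBL36 without Col +S 2 (adjusted p = 0.055 and 0.068). The pectin methylesterase gene PMEPCRF (0.56 ± 0.12) and the extensin gene HRGP1 (0.56 ± 0.12) rose as 1 of 4 and 1 of 3 genes of their lists. Their calls were lost without Col -S 1 or Col +S 1, that of PMEPCRF also without Col +S 2 (adjusted p up to 0.12 and 0.14). The tubulin gene TUB1 read 4.39 and 4.78 at +S and 5.41 and 5.56 at -S and rose by 0.90 ± 0.13 (limma adjusted p = 0.0039), 1 of 11 tubulin and actin genes.

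**Figure D4:**
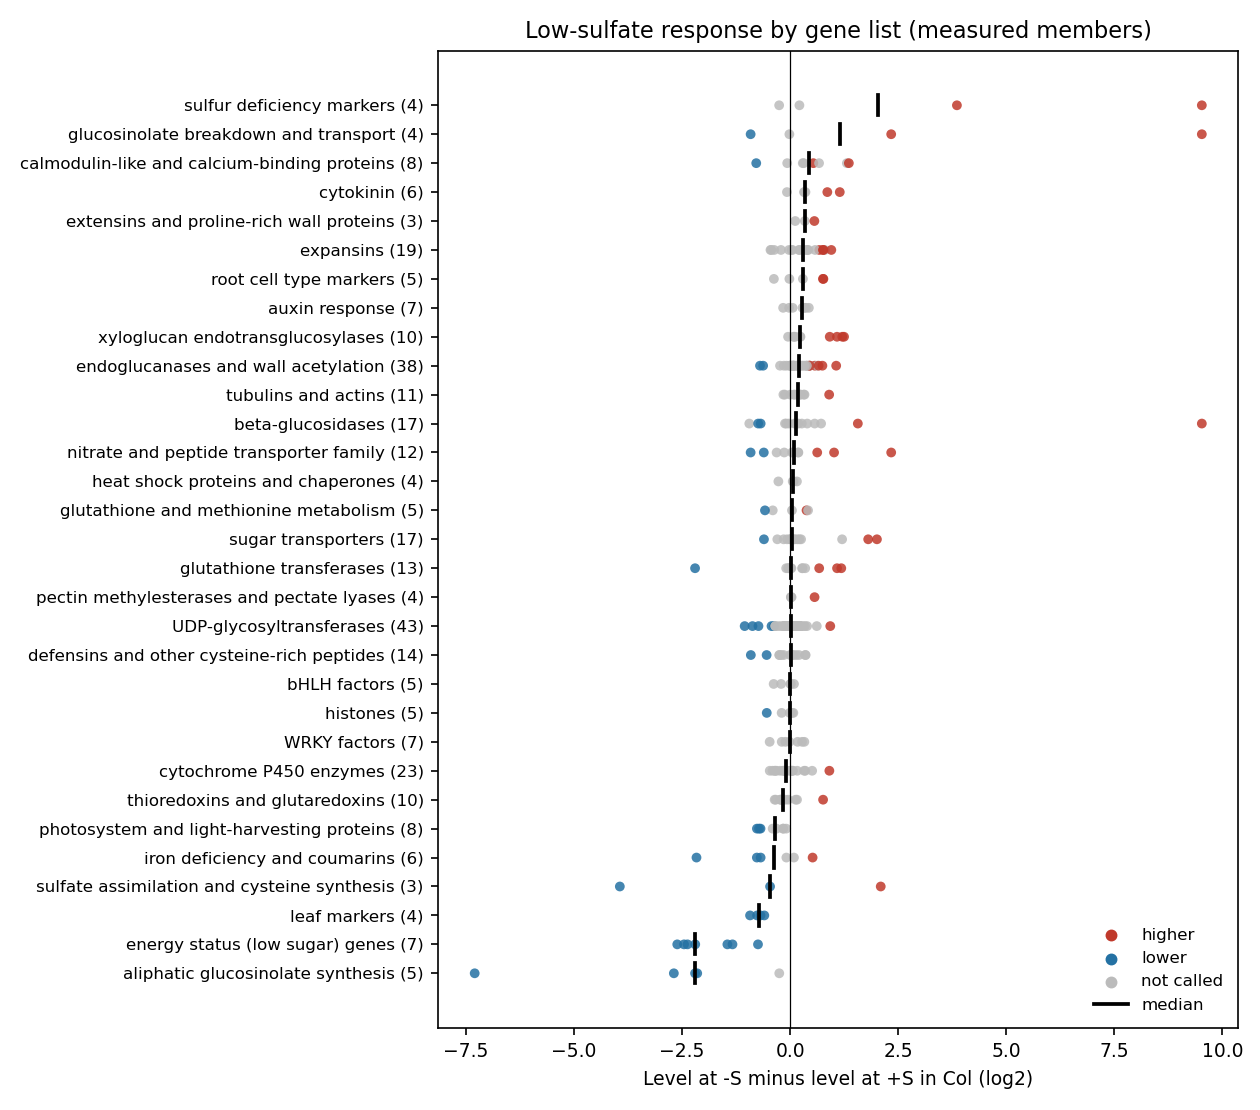
Each point is a measured member of a gene list with at least 3 of them (number in brackets), placed by its level at -S minus that at +S in Col (log2), with red for higher, blue for lower and grey for not called, and a black bar at the list's median. The medians of aliphatic glucosinolate synthesis and of energy status lie at -2.20, and that of sulfur deficiency markers at 2.04.

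Some enzymes that handle thiols changed. Of 13 glutathione transferase genes 3 rose and 1 fell, 23.1% and 7.69% against 4.44% and 5.0% of all probe sets, with a median difference of 0.030. GSTU27 read 4.20 and 4.20 at +S and 5.44 and 5.33 at -S and rose by 1.18 ± 0.10 (limma adjusted p = 0.00019). GSTU25 read 1.65 and 1.69 at +S and 2.72 and 2.79 at -S and rose by 1.08 ± 0.20, and GSTU22 read 4.80 and 4.63 at +S and 5.36 and 5.41 at -S and rose by 0.67 ± 0.16. The fall was that of GSTU20, the member of the glucosinolate pathway. The call of GSTU25 was lost without Col -S 2, Col +S 1 or Col +S 2 (adjusted p up to 0.074) and that of GSTU22 without any Col array (up to 0.17). Of 10 thioredoxin and glutaredoxin genes the glutaredoxin GRXC2 rose, from 5.49 and 5.67 to 6.38 and 6.30, by 0.76 ± 0.11 (limma adjusted p = 0.0032), and the other 9 were not called. STR18, a sulfurtransferase of the rhodanese type, read 3.65 and 3.75 at +S and 4.86 and 5.08 at -S and rose by 1.27 ± 0.11 (limma adjusted p = 0.00022). TROL, the other gene of that list, differed by -0.36 ± 0.12 and was not called.

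Of 17 beta-glucosidase genes 2 rose and 2 fell, 11.8% each against 4.44% and 5.0% of all probe sets. BGLU15, which lies next to BGLU28 and is known to act on flavonol glycosides, read 3.19 and 3.31 at +S and 4.69 and 4.94 at -S and rose by 1.57 ± 0.11 (limma adjusted p = 5.5e-05). BGLU46, a gene for a glucosidase of monolignol glucosides, fell by 0.68 ± 0.16, from 3.78 and 3.94 to 3.28 and 3.08, and BGLU45 passed the test with all 4 arrays under background. The call of BGLU46 was lost without Col -S 2, Col +S 1 or Col +S 2 (adjusted p up to 0.15). Of 43 UDP-glycosyltransferase genes 1 rose and 5 fell, 2.33% and 11.6% against 4.44% and 5.0% of all probe sets, with a median difference of 0.021. UGT72E1, which glucosylates lignin precursors, fell by 0.87 ± 0.15, from 4.57 and 4.28 to 3.75 and 3.35. UGT73B1 fell by 1.05 ± 0.24 and UGT71C3 by 0.43 ± 0.11, and UGT76D1 rose by 0.93 ± 0.18. The call of UGT72E1 was lost without Col +S 1 (adjusted p = 0.080), those of UGT73B1 and UGT71C3 without any Col array (up to 0.15 and 0.17) and that of UGT76D1 without Col -S 1, Col +S 1 or Col +S 2 (up to 0.086). With 1 Col array left out, the list had 1 or 2 falls. Of 14 genes for defensins and other cysteine-rich peptides 2 fell (14.3%, against 5.0% of all probe sets) and 0 rose. The 14 were matched by symbol or synonym. They leave out AT2G43550, a cysteine-rich peptide gene given below, which also fell (limma adjusted p = 0.0011). LCR69 fell by 0.54 ± 0.10 and PDF2.1 by 0.91 ± 0.22. The call of LCR69 was lost without Col -S 2, Col +S 1 or Col +S 2 (adjusted p up to 0.081) and that of PDF2.1 without Col -S 1, Col -S 2, Col +S 2 or either KO +S array (up to 0.15). Of 23 cytochrome P450 genes 1 rose (4.35%, near the 4.44% of all probe sets) and 0 fell. It was CYP78A9, at a level near background (-0.59 and -0.71 at +S and 0.54 and -0.02 at -S). Its call was lost without Col +S 1 or Col +S 2.

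Single transport genes changed in each direction. Of 17 sugar transporter genes of the lists 2 rose and 1 fell, 11.8% and 5.88% against 4.44% and 5.0% of all probe sets. The median difference was 0.036. The 17 were matched by symbol or synonym, mostly SWEET genes, and leave out AT3G05400, which rose as given above. SWEET13 and SWEET14, sucrose exporters of the same clade, read -0.85 and -0.90 at +S and 1.10 and 1.16 at -S, and -0.93 and -1.05 at +S and 0.76 and 0.87 at -S. Both were under background at +S and rose at least 2.92-fold and at least 2.35-fold (limma adjusted p = 7.5e-06 and 2.2e-05). SWEET3 fell from -0.20 and -0.27 to a level under background, -0.77 and -0.91, a call lost without Col -S 2, Col +S 1 or Col +S 2 (adjusted p up to 0.11). SWEET11 read 2.95 and 2.79 at +S and 3.98 and 4.16 at -S, a difference of 1.20 ± 0.49 that did not pass the test (limma adjusted p = 0.17), although its conditions did not overlap in Col; without either KO -S array it passed. Of 12 genes of the nitrate and peptide transporter family, which includes GTR1 and GTR2, 3 rose and 2 fell. These are 25% and 16.7% of the members, against 4.44% and 5.0% of all probe sets. AT1G68570 read 0.07 and 0.03 at +S and 0.70 and 0.65 at -S and rose by 0.63 ± 0.10. AT3G21670 read -0.66 and -0.96 at +S and 0.28 and 0.14 at -S and rose at least 1.54-fold from a level under background, and AT1G59740 read 0.32 and 0.31 at +S and -0.29 and -0.30 at -S and fell at least 1.21-fold to such a level. The call of AT1G59740 was lost without any Col array or either OX array (adjusted p up to 0.19).

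Of the iron deficiency and coumarin list 6 of 21 genes were measured, 1 rose and 3 fell, with a median difference of -0.39. These are 16.7% and 50% of the measured genes, against 4.44% and 5.0% of all probe sets. The hydroxylase S8H, which makes the iron-mobilising coumarin fraxetin, read 1.36 and 1.40 at +S and -0.84 and -0.73 at -S and fell at least 2.52-fold to a level under background (limma adjusted p = 0.00055). F6H1, which makes the precursor of scopoletin, read 6.22 and 6.29 at +S and 5.59 and 5.56 at -S and fell by 0.68 ± 0.11 (limma adjusted p = 0.0067). The coumarin synthase COSY, the next enzyme of that route, read 3.48 and 3.36 at +S and 4.07 and 3.82 at -S and rose by 0.52 ± 0.11 (limma adjusted p = 0.019), so the enzymes of 1 route did not move one way. The call of F6H1 was lost without Col +S 2 (adjusted p = 0.054) and that of COSY without Col -S 1, Col +S 1 or Col +S 2 (up to 0.12). The transcription factor BHLH101 passed the test with all 4 arrays under background, and lost its call without Col +S 1 (limma adjusted p = 0.10). The regulator PYE differed by 0.09 ± 0.11 and the beta-glucosidase BGLU42 by -0.09 ± 0.15, and neither was called.

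Some photosynthesis genes fell in these roots. Of 14 leaf markers 4 were measured and 4 fell (100%, against 5.0% of all probe sets). Of 8 genes for photosystem and light-harvesting proteins 3 fell (37.5%, against the same 5.0%), 0 rose and 5 did not pass the test. Their median difference was -0.36. LHCB4.1 is a member of both lists, so its fall is counted in each. The chlorophyll-binding protein gene LHCB4.1 read 3.47 and 3.53 at +S and 2.83 and 2.79 at -S and fell by 0.69 ± 0.11, and its paralogue LHCB4.2 read 1.07 and 1.39 at +S and 0.51 and 0.42 at -S and fell by 0.77 ± 0.13. RCA, the activase of Rubisco, read 2.26 and 2.53 at +S and 1.65 and 1.28 at -S and fell by 0.93 ± 0.17. In these 3 genes both -S arrays lay below both +S arrays. The photosystem genes PSAE1 and PSBW fell by 0.77 ± 0.18 and 0.72 ± 0.18, and phosphoribulokinase (PRK) passed the test with all 4 arrays under background. The mean level of the 4 leaf markers was 1.40 and 1.62 at +S and 0.79 and 0.74 at -S. The calls depended on the arrays used, except that LHCB4.2 kept its call when any 1 array was left out. Without Col +S 2, 0 of the 4 leaf markers were called, with an adjusted p of 0.052 for LHCB4.1, 0.082 for RCA, 0.11 for PRK and 0.18 for PSAE1, and 1 of the 8 photosystem and light-harvesting genes was called. Without Col -S 2 and Col -S 1 the counts of leaf markers were 2 and 3. The call of PSBW was lost without 7 of the 10 arrays (adjusted p up to 0.21).

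The labelled tissue was checked with root markers, of which 5 of 26 were measured. PYK10 and the root hair expansins EXPA7 and EXPA18 were above background on all 4 arrays, as was SGN3, a receptor kinase of the endodermis (2.23 and 2.14 at +S and 2.43 and 2.53 at -S). The cortex marker CO2 was under background on all 4. The mean level of the 5 markers was 3.34 and 3.43 at +S and 3.70 and 3.64 at -S, and the 2 that rose were EXPA7 and EXPA18. Leaf markers were lower and root hair markers higher at -S in the same arrays in which the cell wall genes rose. EXPA7 and EXPA18 are also 2 of the 4 expansins that rose, so the root hair and cell wall results share genes. The part of leaf or root hair markers in the other results was not tested.

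Several groups showed few or no calls. With 9.44% of all probe sets called, lists this short would often hold none. The absence of calls is therefore not read as a result about these families. None of 7 WRKY, 5 bHLH, 7 auxin response, 4 heat shock or chaperone, 2 ethylene and 2 cyclin, kinesin or cyclin-dependent kinase genes passed the limma test. The 5 bHLH genes were matched by symbol or synonym and leave out BHLH101, which passed it, as given above. The leading genes of the WRKY, bHLH, auxin and ethylene lists by t statistic differed by -0.47 ± 0.15 for WRKY22, which was under background, -0.38 ± 0.11 for bHLH121, 0.33 ± 0.10 for IAA18 and -0.25 ± 0.10 for EIN3. The reference genes SAND and TIP41 differed by 0.15 ± 0.09 and -0.08 ± 0.09 and the cell cycle kinases AUR1 and AUR2 by 0.19 ± 0.11 and 0.06 ± 0.12, none of them called. Of 6 cytokinin genes the response regulators ARR15 and RR16 passed the test at levels near or under background. ARR15 read -1.32 and -1.13 at +S and 0.16 and -0.32 at -S, and its call was lost without Col +S 1 (limma adjusted p = 0.055). Of 8 calmodulin-like genes 2 rose and 1 fell, 25% and 12.5% against 4.44% and 5.0% of all probe sets. CML23, a calcium-binding protein, read 0.99 and 2.17 at +S and 3.18 and 2.69 at -S and rose by 1.36 ± 0.35 (limma adjusted p = 0.044), with 1.18 between its +S arrays. Its call was lost without 9 of the 10 arrays (adjusted p up to 0.21), that of AT1G76640, which was under background, without 5 (up to 0.22), and that of CML30, which fell at least 1.19-fold to a level under background, without Col -S 2 or Col +S 1 (up to 0.092). The linker histone gene HON4 fell by 0.54 ± 0.11, as 1 of 5 histone genes, a call lost without Col -S 2, Col +S 1 or Col +S 2 (adjusted p up to 0.14).

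The dependence of the response on SDI1 and SDI2 was tested as the difference between the response in Col and that in KO. Responses are fitted differences, which for genes under background in a group are no bounds. Of 22197 probe sets 166 were called (0.748%), 30 with a higher and 136 with a lower difference in Col. Of the 186 rises of at least 2-fold in Col 18 differed in response, and 139 also rose in KO. Of the 262 falls of at least 2-fold 52 differed in response, 178 also fell in KO and 26 rose in KO. No rise of at least 2-fold in Col fell in KO. BGLU28, AT3G05400, AT1G75280, ATPS4 and ATL8 had nearly the same difference in both genotypes: 9.53 ± 0.14 in Col and 9.56 ± 0.14 in KO for BGLU28, 5.68 ± 0.09 and 5.93 ± 0.09 for AT3G05400, 4.09 ± 0.10 and 4.17 ± 0.10 for AT1G75280, -3.94 ± 0.11 and -3.87 ± 0.11 for ATPS4, and -2.46 ± 0.24 and -2.55 ± 0.24 for ATL8. None of these 5 was called in the test of the difference (limma adjusted p = 0.59 to 0.98), which does not show that the responses are equal.

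The measured genes of glucosinolate synthesis that fell in Col rose in KO. The response of BCAT4 was -7.30 ± 0.21 in Col and 1.59 ± 0.21 in KO, a difference of -8.89 ± 0.30 (limma adjusted p = 2.5e-06). That of GSTU20 was -2.20 ± 0.15 and 3.15 ± 0.15, that of GSL-OH -2.69 ± 0.11 and 0.97 ± 0.11, and that of UGT74C1 -2.15 ± 0.16 and 1.88 ± 0.16. All 4 aliphatic genes that fell in Col were called as differing (limma adjusted p up to 4.1e-05), and so were UGT74B1, SIR and CBL, which also fell in Col and rose in KO (0.0038, 0.00047 and 0.0045). ATPS3 rose in both, by 2.10 ± 0.14 in Col and 3.23 ± 0.14 in KO (limma adjusted p of the difference = 0.050), a call lost in most other settings. Of the energy status genes, 0 of 7 differed in response. With 0.748% of all probe sets called in that test, this is not read as a result about these genes. Of the 7, 6 also fell in KO, where 777 of all 22197 probe sets fell. In the other direction, STR18 rose by 1.27 ± 0.11 in Col and stood at -0.04 ± 0.11 in KO, and SWEET13 and SWEET14 rose by more in Col than in KO, where they rose by 0.81 ± 0.10 and 0.54 ± 0.11. Of the probe sets with no listed gene, 248676_at stood at -0.37 ± 0.21 in KO. There 249866_at rose by 1.83 ± 0.16 and 249867_at by 1.10 ± 0.18. These were all called as differing, while 252269_at rose in KO as well, by 8.02 ± 0.15. Whether any of these probe sets measures SDI1, which is knocked out in KO, cannot be told from the annotation used here. Without KO +S 1 the number of probe sets with a differing response was 84 and without KO +S 4 it was 205, with 110 higher and 95 lower.

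**Figure D5:**
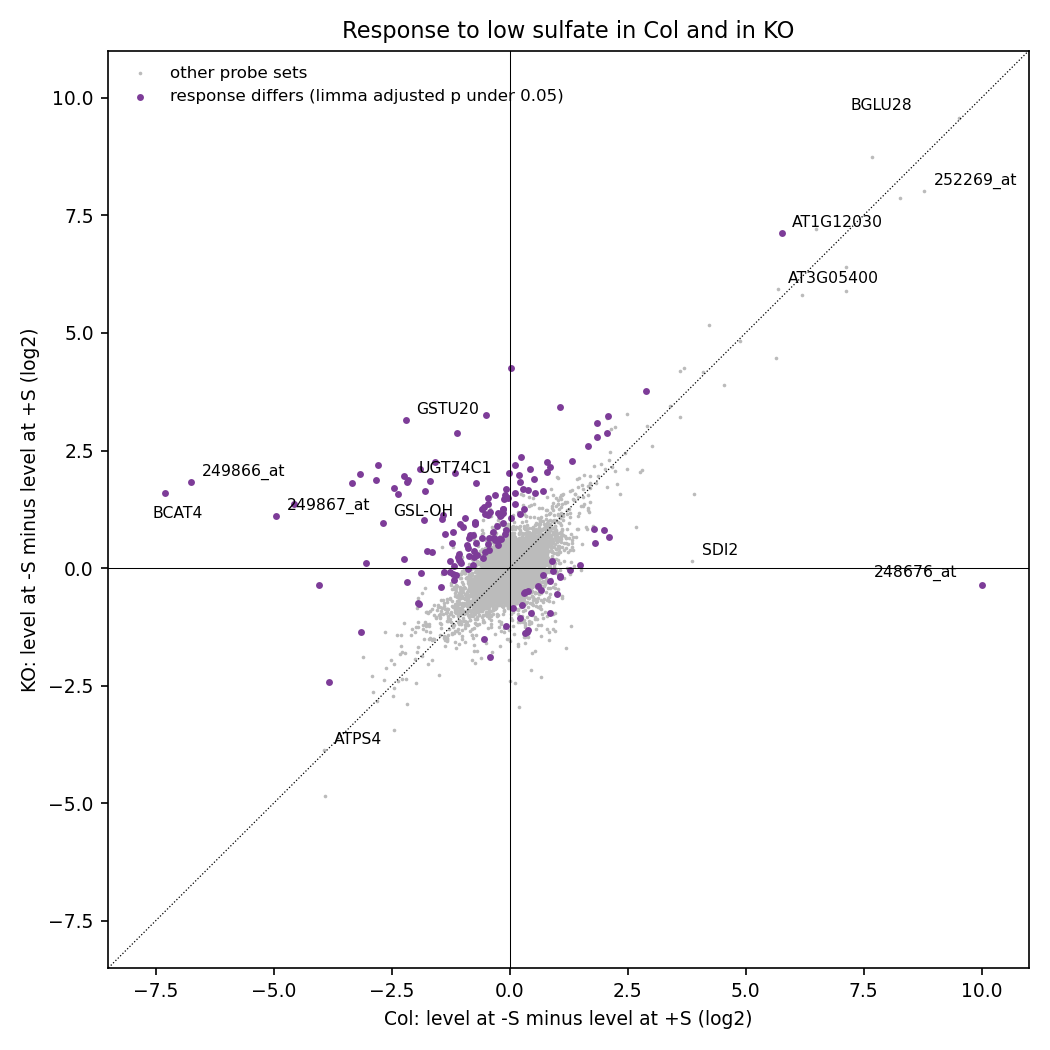
Each point is a probe set, placed by its level at -S minus that at +S in Col (horizontal) and in KO (vertical), both on the log2 scale, with the 166 probe sets whose responses differed at an adjusted p under 0.05 in purple and a dotted line where both responses are equal. BCAT4, GSTU20, GSL-OH, UGT74C1, 249866_at and 249867_at lie at the upper left, below 0 in Col and above 0 in KO, and BGLU28 and ATPS4 lie near the dotted line.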

How the data were processed

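Root RNA was hybridised to 10 ATH1 arrays, 2 in each of 5 groups assigned from the titles. The authors deposited 1 log10 expression value for each probe set and array. The background correction, summarization and normalization are not given in the sources used here. The base was settled from the spiked controls bioB, bioC, bioD and cre (nominally 1.5, 5, 25 and 100 pM), which spanned 2.06 units, where log10 values would span 1.82, log2 values 6.06 and natural logs 4.20. Slopes of 1.06 to 1.14 against nominal concentration mean that folds may be overstated.

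Values were multiplied by the log2 of 10, with no pseudocount. Of 22810 probe sets, 554 had no value and 64 were controls (5 of them without a value), which left 22197 for testing. The platform annotation lists a single gene for 13513, several for 503 and none for 8794 probe sets. RefSeq (TAIR10.1) matched 13436 of the 13513. Lists were matched by locus or by words in symbols and synonyms only, so many family members were missed. Every column of array values was used.

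A mean for each of the 5 groups was fitted with limma 3.58.1 (lmFit and eBayes in R 4.3.3), which left 5 residual degrees of freedom beside a prior of 3.81. The fit was tested on simulated data for the comparison of Col -S with Col +S over 22197 probe sets. It recovered 98 of 100 changes of 1 and 100 of 100 of 2 on the log2 scale, with 17 false calls. The changed probe sets all had a mean level above 1, and the noise was normal and independent. Recovery at lower levels was not tested. Background was the 95th percentile of 22 Bacillus probe sets per array. A lower bound of a fold compares the brighter mean with the mean of the higher of background and own value over the dimmer arrays.

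The wild-type comparison and all lists were chosen with earlier results of these data known. Genes named were the 15 largest rises and 15 largest falls among called probe sets with a single listed gene, no overlap between conditions and a brighter group above background, all measured members of 8 sulfur and glucosinolate lists, up to 5 members of each other list by t statistic, the 8 largest differences of response from KO in each direction, and the 2 largest rises and 2 largest falls without a listed gene. AKINBETA1, IVD and BGLU42 lie outside this rule and were added to complete their lists after their values were seen. Label numbers of the Col arrays pair no samples by design: deviations of same-numbered arrays correlated at -0.14 in Col, and at 0.07 in KO, where a number is a plant line. Promoter motifs and protein sequences were not analysed here.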

Additional observations from a re-analysis of the deposited data

Results flagged for a closer look

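Responses that differed between Col and KO are listed here, as found by the interaction term of the fit. In all 166 probe sets were called. Each value below is the response in Col minus the response in KO (log2 ± SE), with n = 2 arrays in each of the 4 groups.

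Among genes with a lower response in Col, the glucosinolate genes had differences of -8.89 ± 0.30 for BCAT4, -5.35 ± 0.21 for GSTU20, -4.03 ± 0.23 for UGT74C1, -3.66 ± 0.15 for GSL-OH and -1.69 ± 0.19 for UGT74B1. The genes of sulfur assimilation and methionine synthesis had -1.83 ± 0.15 for SIR, -1.23 ± 0.14 for CBL and -1.13 ± 0.20 for ATPS3. Other named genes had -4.16 ± 0.16 for AT1G21440, -2.83 ± 0.15 for AT3G23570, -2.53 ± 0.23 for AT2G43550, -2.35 ± 0.30 for AT4G05550 and -1.36 ± 0.20 for AT1G12030. AT3G23570, of the dienelactone hydrolase family, read 3.33 and 3.29 at +S and 1.57 and 1.43 at -S in Col, and AT2G43550, a cysteine-rich peptide gene, 1.40 and 1.48 at +S and 0.28 and -0.21 at -S. AT4G05550 rose at least 1.59-fold in Col, from a level under background, and its fitted differences were 1.08 ± 0.21 in Col and 3.43 ± 0.21 in KO. Its call in Col was lost without Col -S 2 or Col +S 2 (adjusted p up to 0.10).

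Among genes with a higher response in Col, the differences were 1.32 ± 0.16 for STR18, 1.20 ± 0.15 for SWEET13, 1.27 ± 0.15 for SWEET14 and 1.14 ± 0.17 for EXLB1. AT5G39670, an EF-hand gene, had 1.81 ± 0.28, AT1G49700 1.74 ± 0.21, AT5G61290, a flavin monooxygenase gene, 1.70 ± 0.16, AT1G58420 1.55 ± 0.25, AT4G14060, of the major latex protein family, 1.43 ± 0.22 and AT2G18210 1.40 ± 0.23. AT4G14060 read 3.50 and 3.62 at +S and 4.81 and 5.28 at -S and rose by 1.49 ± 0.15 in Col, against 0.06 ± 0.15 in KO. AT5G39670 rose by 0.86 ± 0.20 and AT1G58420 at least 1.7-fold in Col, calls that were lost without Col -S 1, Col -S 2 or Col +S 1 for AT5G39670 and without Col -S 2 or Col +S 1 for AT1G58420 (adjusted p up to 0.19 and 0.083). AT1G49700, AT5G61290 and AT2G18210 were called for the difference in response and not for the response in Col itself.

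The probe sets without a listed gene had differences of 10.37 ± 0.30 for 248676_at, -8.57 ± 0.23 for 249866_at and -6.04 ± 0.26 for 249867_at. Whether any of them measures SDI1, which KO lacks, cannot be told from the annotation used here. Over the 19 or 20 other settings that gave each a value, 18 of the 26 named probe sets kept the call of a differing response. The highest adjusted p over these settings was 0.19 for ATPS3, 0.16 for AT1G58420, 0.16 for AT2G18210, 0.13 for AT4G14060, 0.10 for AT1G12030, 0.10 for AT5G39670, 0.083 for EXLB1 and 0.052 for AT4G05550.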

How the results depend on the processing

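For the count of 2095 in Col, quantile normalization, median centring, division by the spike-in slope, omission of probe sets not above background, a trend with robust variances and array weights gave 1656 to 2722. With 1 probe set per gene (12940 tested) the count was 899, and with only the 4 Col arrays, which have fewer residual degrees of freedom, it was 986. Leaving out 1 array gave 897 to 2077. For the 166 differing responses the count was 284 with probe sets above background, 251 with a trend and robust variances and 53 with 1 probe set per gene, and leaving out 1 array gave 84 to 205. With label numbers as a replicate block the counts were 1465 and 106. The block is a plant line in KO but only a number in Col, and crossing the Col numbers, an alternative added after seeing the data because their correlation was -0.14, gave 1672 and 137. No direction of a called named gene reversed in any setting (0 values). In the Col comparison, leaving out either array of a KO or OX group gave the same fit, so these settings are not separate checks. For differing responses this holds for the OX group. Of 101 called named probe sets 59 kept their call in every setting that gave them a value (19 or 20) and 42 lost it in at least 1, and of 84 not called 8 passed in at least 1. Where calls moved, the cause was not tested beyond the smaller number of arrays or probe sets. The 2 arrays per group limit the results, and so do low levels, since 7225 probe sets were under background on all 4 Col arrays.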

Other observations

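Large changes of neighbouring genes were counted from the order of protein-coding genes in RefSeq. Of 5728 neighbouring pairs with both genes measured, 7 pairs had both genes called with at least a 2-fold change, 6 of them in the same direction and 1 in opposite directions, while 204 of 12940 genes (1.58%) had such a change. The pairs that rose together were AT1G75280 with AT1G75290, BGLU15 with BGLU28, XTH18 with XTH19, AT3G19000 with AT3G19010 (1.13 ± 0.12 and 1.02 ± 0.17), AT5G37970 (2.02 ± 0.15) with AT5G37980, and AT5G37980 with AT5G37990. The opposite pair was AT3G07710 (1.02 ± 0.17) with AT3G07720 (-1.07 ± 0.13). These genes were chosen after their values were seen, and several pairs are members of 1 family. Whether probe sets of related neighbours share signal was not tested.

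The -S arrays differed from each other by more than 1 on the log2 scale in 151 probe sets and the +S arrays in 62. Among probe sets above background on both arrays of the condition, the numbers were 19 and 17.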
